A study of Rattus norvegicus with 8 samples.

Results

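The photoreceptor outer segment structure genes are 10 genes whose products build, anchor or surround the light-sensitive outer segment, the modified cilium of rods and cones. They were Prom1, Cdhr1, Fscn2, Prph2, Rom1, Rp1, Rpgrip1, Tulp1, Impg1 and Tlcd3b, taken by symbol from the probe table of the platform, and all 10 were measured among the 14801 named genes tested. Of them, 7 had a single probe and Prom1, Rom1 and Rpgrip1 had a pair, which made 13 probes. All members had a value on every array.

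The outer segment is a stack of flattened membrane discs that is shed at its tip and renewed at its base throughout life. New discs evaginate from the ciliary membrane, their rims are curved by tetraspanin proteins, the stack stands on a microtubule axoneme behind a connecting cilium, and an extracellular matrix surrounds it. Variants in most of these genes cause inherited retinal degeneration in humans. Ganglion cells, the neurons whose axons form the optic nerve, have no outer segment.

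The study set RNA of large against small rat retinal ganglion cells on 2-colour Agilent oligonucleotide arrays. Ganglion cells labelled retrogradely with 4DI-10ASP had been taken from fresh retinas and sorted by flow cytometry into the 2 size fractions. Both fractions were handled with Actinomycin D, an inhibitor of transcription, and their RNA was amplified in 2 rounds. By the labels it was coupled to Cy5 (large cells) or Cy3 (small cells), and the dye swaps of the series text are taken up below. The sources used here do not give the strain, age or number of the animals. The 8 arrays are named by the number in their title (39, 40, 41, 42, 43, 69, 70 and 71) and form 1 group, since each compares the same 2 kinds of RNA.

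Each value is a log2 ratio of the channels, so it shows how the fractions differed and not how much RNA of a gene either held. Fewer photoreceptor cells in a fraction and less RNA per cell cannot be told apart in such bulk samples. The direction of the ratio is not settled. The labels list large cells in channel 1 on every array, the series text speaks of dye swaps, and nothing says whether swapped arrays had been turned. Over all probes, Pearson correlations were 0.22 to 0.68 among arrays 39, 41, 43 and 70, here called set 1, and among arrays 40, 42, 69 and 71, here called set 2. Between the sets 15 of 16 pairs correlated negatively, down to -0.32. Values are therefore given with the signs as deposited and with the signs of set 2 turned, and a gene is said to lie on the positive or the negative side of 0. If the ratio runs from channel 1 over channel 2 and swapped arrays had been turned, a positive value means more RNA in large cells. If instead set 2 holds swapped arrays left unturned, the mean as deposited cancels the difference between large and small cells. Only the mean with set 2 turned then measures it. The fold differences below are those of the mean as deposited and compare the fractions only if swapped arrays had been turned.

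To show where these genes start, the RefSeq promoter windows (assembly GRCr8, 250 bases before to 50 after the start) were searched for TAATC, the core shared by binding sites of the photoreceptor homeodomain factors CRX and OTX2, and for TAATCC, the longer form that contains it, on both strands. RefSeq windows were found for 9 of the 10 genes, with 2 windows for Prom1, and Rp1 was not matched. TAATC was present in windows of 3 of the 9 genes and in 22.9% of the 33469 windows of all genes, and TAATCC in that of Prph2 and in 7.17% of all windows. TGCTGA, part of the element bound by the rod factor NRL, was found in none of the 10 windows of these genes and in 18.4% of all windows. The windows with a match are Prph2 (chr9:21579025-21579324, minus strand), Impg1 (chr8:90269854-90270153, minus strand) and Tulp1 (chr20:6425784-6426083, minus strand), in which capitals mark TAATC or its reverse complement GATTA. The Prom1 windows (chr14:71202395-71202694 and chr14:71211389-71211688, plus strand) are shown because Prom1 had the highest ratio, and they hold no match. The matches began 163 and 133 bases before the start in Prph2, 65 and 39 before it in Impg1 and 11 after it in Tulp1.
Prph2: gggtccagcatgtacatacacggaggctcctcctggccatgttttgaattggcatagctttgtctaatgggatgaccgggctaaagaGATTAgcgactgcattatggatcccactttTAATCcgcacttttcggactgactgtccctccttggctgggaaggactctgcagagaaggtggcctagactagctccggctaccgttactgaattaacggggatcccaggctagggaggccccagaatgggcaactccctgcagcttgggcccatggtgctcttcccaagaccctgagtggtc
Impg1: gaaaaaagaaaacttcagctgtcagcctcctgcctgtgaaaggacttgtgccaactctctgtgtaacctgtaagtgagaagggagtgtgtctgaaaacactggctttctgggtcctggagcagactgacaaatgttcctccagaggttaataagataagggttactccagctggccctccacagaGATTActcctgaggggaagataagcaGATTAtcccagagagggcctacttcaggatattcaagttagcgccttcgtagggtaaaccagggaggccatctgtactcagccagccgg
Tulp1: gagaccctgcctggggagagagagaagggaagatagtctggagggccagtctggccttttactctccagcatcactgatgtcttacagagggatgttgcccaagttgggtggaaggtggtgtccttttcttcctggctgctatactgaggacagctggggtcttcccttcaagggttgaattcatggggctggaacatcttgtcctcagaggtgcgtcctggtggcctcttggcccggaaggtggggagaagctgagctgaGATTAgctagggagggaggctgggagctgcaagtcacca
Prom1 first window: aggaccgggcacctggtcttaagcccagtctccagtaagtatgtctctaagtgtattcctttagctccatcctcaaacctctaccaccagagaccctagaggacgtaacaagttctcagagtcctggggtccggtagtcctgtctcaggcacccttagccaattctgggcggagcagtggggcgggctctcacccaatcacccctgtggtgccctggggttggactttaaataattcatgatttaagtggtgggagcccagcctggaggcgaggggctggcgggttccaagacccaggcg
Prom1 other window: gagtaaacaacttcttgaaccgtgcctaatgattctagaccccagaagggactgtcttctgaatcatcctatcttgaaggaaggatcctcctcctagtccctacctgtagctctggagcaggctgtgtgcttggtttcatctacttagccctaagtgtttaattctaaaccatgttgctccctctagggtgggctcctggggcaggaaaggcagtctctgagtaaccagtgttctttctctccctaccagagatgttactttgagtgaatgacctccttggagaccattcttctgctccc

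As deposited, 8 of the 10 genes had a mean on the positive side, against 48% of all genes, and 5 of them passed the test. The test was limma's moderated test of the mean over 8 arrays against 0 across all 14801 genes, with a Benjamini-Hochberg adjusted p under 0.05. Those called were Prom1, Rp1, Tulp1, Tlcd3b and Impg1, all on the positive side, against 0.568% of all genes called on that side and 2.19% on either side. The median of the 10 means was 0.51, and the median over all genes tested was -0.01. The calls were not stable against the arrays used, as given below for each gene, and the genes had been chosen with earlier results of these data known.

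**Figure D1:**
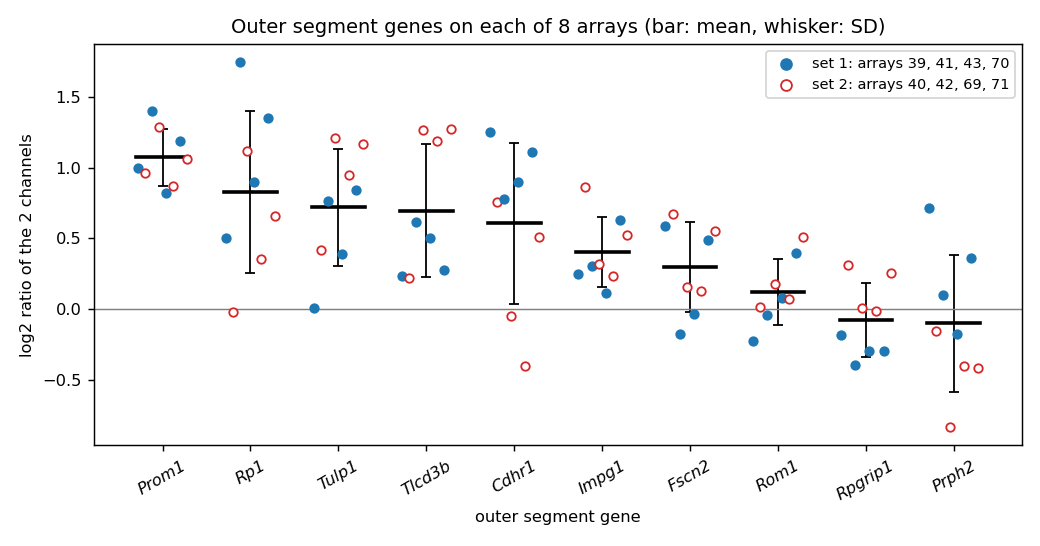
Log2 ratio (y axis) of each outer segment gene (x axis, ordered by mean) on each of 8 arrays, with filled points for set 1, open points for set 2, bars for the mean and whiskers for the SD. All 8 points of Prom1 lie between 0.82 and 1.40, those of Rp1 spread from -0.02 to 1.74, and Prph2 and Rpgrip1 straddle 0.

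Among genes of disc evagination, Prom1 had the highest mean of the 10. It encodes prominin-1, a membrane protein at the base of the outer segment that growing discs need. It ranked 5th from the highest among all genes by its mean. Its log2 ratio was 0.82 at the lowest (array 43), 1.03 at the median and 1.40 at the highest (array 41). No array came near 0, and both sets lay at the same height, with means of 1.10 in set 1 and 1.04 in set 2. The mean was 1.07 ± 0.20 (SD, n = 8 arrays), a 2.10-fold difference with a limma adjusted p of 0.000939. Both Prom1 probes, which are annotated to the same transcript NM_021751, were called when probes were tested singly, at 0.74 ± 0.17 and 1.40 ± 0.28. Prom1 was the only one of the 10 genes called with each array left out in turn, as were 0.196% of all genes on the positive side.

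Cdhr1, a photoreceptor cadherin that sits with prominin-1 at the edges of nascent discs, had a mean of 0.61 ± 0.57 and did not pass the test (limma adjusted p = 0.125). Its values ran from -0.40 on array 69 over a median of 0.77 to 1.25 on array 39. The sets of arrays differed, with means of 1.01 in set 1 and 0.20 in set 2 (limma adjusted p = 0.0337 for the difference, which was called for 33.6% of all genes). Without array 69 Cdhr1 was called at 0.75 (limma adjusted p = 0.0402). Prom1 exceeded Cdhr1 on 6 of 8 arrays, by 0.47 ± 0.59, which did not pass an exact 2-sided sign-flip permutation test (p = 0.0703, or 0.211 adjusted over 3 pairs of partner genes, with 0.00781 the smallest p that 8 arrays allow). Fscn2, a photoreceptor fascin that bundles actin, had a mean of 0.30 ± 0.32 and was not called (limma adjusted p = 0.233). Its lowest value was -0.17 on array 41, its median 0.32 and its highest 0.67 on array 40.

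The tetraspanins of the disc rim stayed near 0 in the mean. Prph2 encodes peripherin-2, which curves the rim, and Rom1 its non-glycosylated partner, with which it forms mixed complexes. Prph2 had a mean of -0.10 ± 0.49 (limma adjusted p = 0.909), with values from -0.83 on array 42 over a median of -0.16 to 0.72 on array 39. Set 1 averaged 0.25 and set 2 averaged -0.45, and Prph2 was higher on the array of set 1 in all 4 pairs of neighbouring numbers (39 over 40, 41 over 42, 43 over 69, 70 over 71), by 0.23 to 0.94. Rom1 had a mean of 0.12 ± 0.23 (limma adjusted p = 0.665), from -0.22 on array 39 over a median of 0.08 to 0.51 on array 71. The 2 Rom1 probes lay on opposite sides, at 0.38 ± 0.35 for the probe of NM_001009690 and -0.13 ± 0.15 for that of the expressed sequence tag AA892855, and neither was called. Rom1 minus Prph2 was 0.22 ± 0.62 and positive on 6 of 8 arrays (exact 2-sided sign-flip permutation p = 0.312, adjusted p = 0.438), and it was -0.42 ± 0.49 with the signs of set 2 turned (exact p = 0.0625, adjusted p = 0.188).

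Among genes of the axoneme, connecting cilium and ciliary transport, Rp1 and Tulp1 were called and Rpgrip1 was not. Rp1 encodes a microtubule-binding protein of the axoneme that aligns the discs. Its values were -0.02 at the lowest (array 40), 0.78 at the median and 1.74 at the highest (array 41), and 7 of 8 arrays were positive. The mean was 0.83 ± 0.57, a 1.77-fold difference with a limma adjusted p of 0.0397. In every pair of neighbouring numbers Rp1 was higher on the array of set 1, by 0.52 to 0.69. Its call was kept without array 40 (limma adjusted p = 0.0246) and was lost with each of the other 7 arrays left out, with adjusted p up to 0.117.

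Tulp1, a tubby-like protein that photoreceptors need to carry rhodopsin and other proteins to the outer segment, was positive on 8 of 8 arrays. Its lowest value was 0.01 on array 39, its median 0.80 and its highest 1.21 on array 42. The mean was 0.72 ± 0.42, a 1.65-fold difference (limma adjusted p = 0.021), and the call was kept without array 39, 40 or 43 and lost without any of the other 5, with adjusted p up to 0.0697. Unlike Rp1, Tulp1 was lower on the array of set 1 in all 4 pairs, the differences running from -0.56 to -0.32. Rpgrip1, which tethers the RPGR protein in the connecting cilium, had a mean of -0.07 ± 0.26 (limma adjusted p = 0.87). Its values ran from -0.39 on array 41 over a median of -0.10 to 0.31 on array 40. All arrays of set 1 were negative and averaged -0.29, and set 2 averaged 0.14 (limma adjusted p = 0.0139 for the difference between the sets). The 2 Rpgrip1 probes had means of -0.11 ± 0.41 and -0.04 ± 0.22.

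The remaining called genes act in the matrix and in lipid synthesis. Tlcd3b, a ceramide synthase linked to cone-rod dystrophy in humans, was positive on 8 of 8 arrays, with 0.22 at the lowest (array 40), 0.56 at the median and 1.27 at the highest (array 71). Its mean was 0.70 ± 0.47, a 1.62-fold difference (limma adjusted p = 0.0397). Arrays 42, 69 and 71 lay between 1.19 and 1.27 and the other 5 between 0.22 and 0.62. The call was kept without array 39 or 40 and lost without any of the other 6, with adjusted p up to 0.102. Impg1 encodes a proteoglycan of the matrix between photoreceptors. It was positive on 8 of 8 arrays, with 0.11 at the lowest (array 43), 0.31 at the median and 0.86 at the highest (array 40), and its mean was 0.40 ± 0.25 (1.32-fold, limma adjusted p = 0.0473). This call was lost with any array left out (adjusted p from 0.0591 to 0.141) and with each array centred on its median (adjusted p = 0.0608).

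Impg2, the sister proteoglycan of the same matrix, spread more widely over the arrays than any of the 10 genes. It stood at -1.85 and -1.99 on arrays 39 and 40 and was positive on the other 6, up to 1.35 on array 42, with a mean of -0.03 ± 1.23 (limma adjusted p = 0.991). Impg1 minus Impg2 was 0.43 ± 1.35 (exact 2-sided sign-flip permutation p = 0.438, adjusted p = 0.438) and -0.25 without arrays 39 and 40. Leaving out array 39 alone gave 0.19 and array 40 alone 0.083. Arrays 39 and 40 were also the highest for microglia markers, with list means of 0.84 on both, against values from -0.41 to 0.28 on the other 6. The part of either in the Impg2 values was not tested. Without those arrays Impg1 was not called (0.35, limma adjusted p = 0.0715), while Prom1 (1.10), Rp1 (1.02), Tulp1 (0.89) and Tlcd3b (0.85) were, among 2.65% of all genes.

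On all 8 arrays 4 members, Prom1, Tulp1, Impg1 and Tlcd3b, were positive, as were 1.56% of the 14665 genes with 8 values. Across arrays, the mean over the 10 genes was 0.41 and 0.40 on arrays 39 and 40, 0.51 and 0.47 on 41 and 42, 0.32 and 0.30 on 43 and 69, and 0.63 and 0.61 on 70 and 71. Neighbouring numbers thus lay closer to each other than the pairs did among themselves. Genes higher in set 1 (Rp1, Prph2, Cdhr1) and genes higher in set 2 (Tulp1, Tlcd3b, Rpgrip1) did not show this to the same degree. They offset each other in the mean. Prom1 differed by -0.05 to 0.13 between neighbours, with pair averages from 0.85 to 1.34.

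The labels speak of 2 technical subreplicates for each biological replicate and do not say which arrays belong together. If neighbouring numbers are the subreplicates, the test over 8 arrays counts each sample more than once. Averaging neighbours left 4 values a gene, from which limma called 0 of the 10 genes and 0% of all genes, with adjusted p of 0.0884 for Prom1, 0.101 for Tlcd3b, 0.121 for Tulp1, 0.141 for Impg1, 0.157 for Cdhr1 and 0.158 for Rp1. At an unadjusted p under 0.05 there were 6 of the 10, against 13% of all genes. With set as a covariate limma called 6 of the 10, Cdhr1 being added, against 6.27% of all genes. With neighbours as a random block it called 5 of the 10, those called over single arrays, against 3.53% of all genes. In each pair of neighbours the arrays come from different sets, and the sets mostly correlated negatively with each other. The block did not make the test stricter. Without it 2.19% of all genes were called, and with it the limma adjusted p of Prom1 fell from 0.000939 to 0.000573. The block fit thus cannot show whether the 5 calls hold once subreplicates are allowed for. When probes were tested singly, 4 of the 10 genes had a called probe, Impg1 being lost (adjusted p = 0.0564), against 2.12% of all probes.

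Single arrays moved the count of called genes among the 10. It was 3 without array 39 and 4 without array 40, where 2.24% and 1.89% of all genes were called. Without array 41 or 42 it was 1, against 1.32% and 1.27% of all genes. It was 2 without array 43 (Prom1 and Tulp1, against 1.07% of all genes) and 2 without array 69 (Prom1 and Cdhr1, against 1.39%). It was 1 without array 70 or 71, against 0.906% and 1.14%.

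With the signs of set 2 turned, as if swapped arrays had been deposited unturned, none of the 5 called genes kept its call. Their means became 0.03 for Prom1, 0.30 for Rp1, -0.22 for Tulp1, -0.29 for Tlcd3b and -0.08 for Impg1, with limma adjusted p from 0.419 to 0.961. The turned mean is the set 1 mean minus the set 2 mean, divided by 2. A call as deposited needs a mean large against the spread over 8 arrays, which leaves little room for a difference between sets. The loss of these calls thus follows largely from the calculation. Called instead were Prph2 at 0.35 (limma adjusted p = 0.0335, positive on 7 of 8 arrays) and Rpgrip1 at -0.22 (adjusted p = 0.0204, positive on 1 of 8), 2 of 10 against 28.1% of all genes. Cdhr1 was at 0.40, Rom1 at -0.07 and Fscn2 at -0.08. The 10 means then ran from -0.29 to 0.40 with a median of -0.07. Averaging neighbouring arrays besides, which was chosen after seeing the data, gave 6 called genes, Rp1, Prph2 and Cdhr1 on the positive side and Tulp1, Tlcd3b and Rpgrip1 on the negative side, against 49.1% of all genes.

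**Figure D2:**
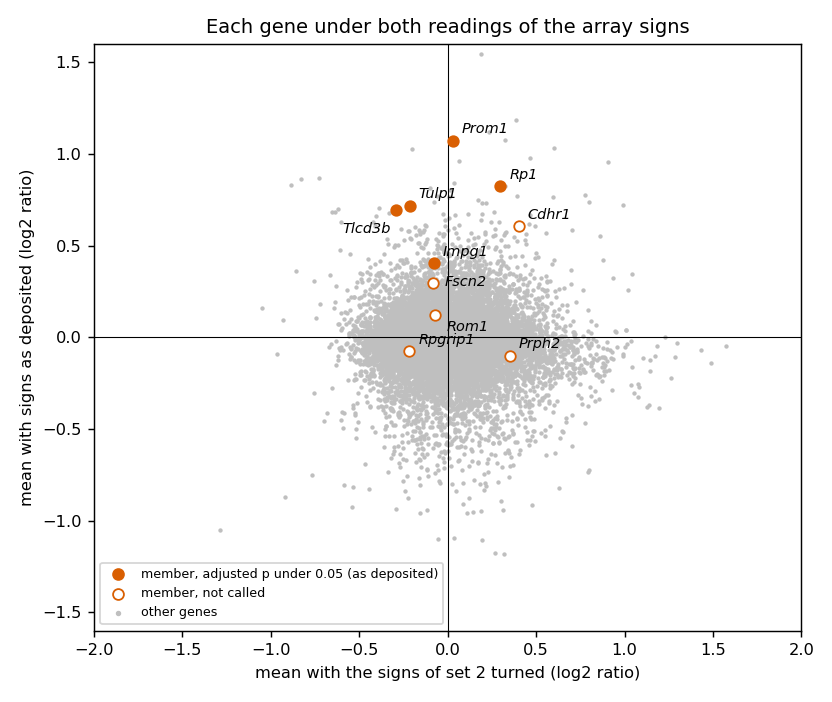
Mean log2 ratio of each gene over 8 arrays with signs as deposited (y axis) against the mean with the signs of set 2 turned (x axis), for the 10 outer segment genes (orange, filled where called as deposited) and all other genes (grey). Prom1 lies at 1.07 on the y axis and 0.03 on the x axis, whereas Prph2 lies at -0.10 and 0.35.

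Other photoreceptor genes were set beside these by lists, which were chosen with earlier results known and share some genes. Of 26 phototransduction genes 21 were measured, and 2 were called on the positive side and 1 on the negative side, against 0.568% and 1.62% of all genes. Called were Slc24a1, a cation exchanger of the rod outer segment, at 0.66 ± 0.21, the cone transducin gene Gnat2 at 0.54 ± 0.21 and, on the negative side, Rgs9, which speeds the shut-off of transducin and is also used elsewhere in the nervous system, at -0.58 ± 0.28. The list had a median of 0.27. Of 23 measured disc membrane, phagocytic and matrix partners 4 were called, all positive, with a list median of 0.13. Besides Slc24a1 these were Abca4, the flippase of retinal conjugates in the disc rim, at 0.40 ± 0.10, Rdh12, a photoreceptor retinol dehydrogenase, at 0.45 ± 0.12, and Elovl4, which makes very long fatty acids of disc lipids, at 0.53 ± 0.33. Of 24 measured genes of the cilium and of retinitis pigmentosa 3 were called, all positive, with a median of 0.12. They were the ciliary base gene Fam161a at 0.41 ± 0.16, the Usher scaffold gene Whrn at 0.54 ± 0.37 and the BBSome subunit gene Bbs7 at 0.54 ± 0.32. Among 11 measured photoreceptor transcription factors Otx2 at 0.49 ± 0.21 and Neurod1 at 0.57 ± 0.25 were called. Crx at 0.29 ± 0.33 and Nrl at 0.32 ± 0.27 were not (limma adjusted p = 0.262 and 0.139). None of the called genes of these lists kept its call with the signs of set 2 turned (limma adjusted p from 0.419 to 0.995). This too follows largely from how the turned mean is calculated. Other genes of the lists were called in that reading, against 28.1% of all genes. They were 4 positive and 2 negative of the 21 phototransduction genes. Of the 23 partners 1 was called positive and 2 negative, of the 24 genes of the cilium 4 positive and 0 negative, and of the 11 transcription factors 0 positive and 1 negative.

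**Figure D3:**
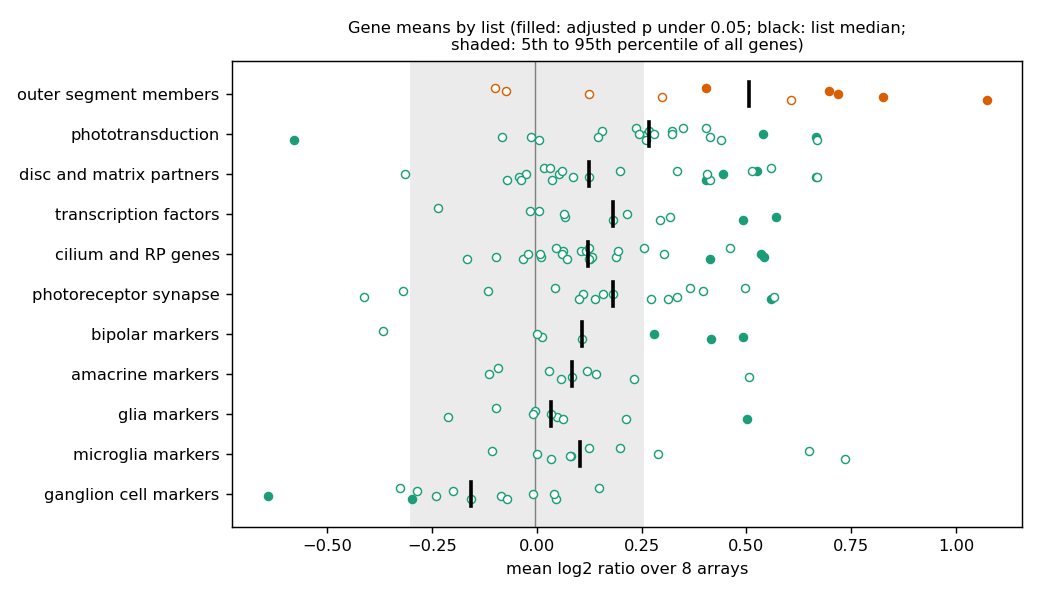
Mean log2 ratio over 8 arrays (x axis) of each gene in the outer segment list and in 10 other lists (y axis), with filled points for genes called by limma, black bars for list medians and shading from the 5th percentile (-0.30) to the 95th (0.25) of all genes. The outer segment median lies at 0.51 and that of ganglion cell markers at -0.16.

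Marker lists of cell types moved with these genes to different degrees. Of 8 measured rod markers 7 had a positive mean and limma called 0 (5 at an unadjusted p under 0.05, list median 0.32), with the rod channel gene Cnga1 at 0.67 ± 0.56 and the rod transducin gene Gnat1 at 0.44 ± 0.35. With the signs of set 2 turned limma called 3 of the 8, all positive, against 28.1% of all genes, and the rod median was 0.31. These were Sag, Gngt1 and Pdc, named here after their values were seen. Of 8 measured cone markers 7 had a positive mean and Gnat2 was called (median 0.26), against 0.568% of all genes on the positive side. The rod list mean ran from 0.46 to 0.88 on set 1 arrays and from -0.11 to 0.13 on set 2 arrays, whereas that of the outer segment genes ran from 0.32 to 0.63 on set 1 arrays and from 0.30 to 0.61 on set 2 arrays. Cone markers ran from 0.08 to 0.37 and were positive on 8 of 8 arrays. Among 7 measured bipolar cell markers Otx2, Trpm1 (0.42 ± 0.16) and Gabrr1 (0.28 ± 0.09) were called positive, against 0.568% of all genes. The list median was 0.11, 5 of the 7 means were positive, and the list mean ran from 0.04 to 0.26. Pcp2 lay at -0.37 ± 0.30, negative on 8 of 8 arrays, and was not called (limma adjusted p = 0.106). Otx2 is also in the list of transcription factors. Of 13 measured ganglion cell markers 2 were called, both negative, against 1.62% of all genes on that side. They were Slc17a6 at -0.64 ± 0.38 and Thy1 at -0.30 ± 0.11. The list mean was negative on 8 of 8 arrays, from -0.35 to -0.05. With the signs of set 2 turned 3 of the 13 were called positive and 3 negative, against 28.1% of all genes. The median was then -0.04. Of 10 measured microglia markers limma called 0 (3 at an unadjusted p under 0.05), with a list median of 0.10 and means from -0.11 to 0.74, the highest being Itgam at 0.74 ± 0.80 and P2ry12 at 0.65 ± 0.60. Itgam stood at 2.22 and 1.48 on arrays 39 and 40 and between -0.35 and 0.74 on the other 6. Of 4 measured horizontal cell markers it called 0 (0 at an unadjusted p under 0.05), with Onecut1 at -0.17 ± 0.48 and Septin4 at -0.09 ± 0.29. Rlbp1, a retinaldehyde-binding protein of Müller glia and pigment epithelium, was the called gene of those 2 lists, at 0.50 ± 0.31. The other genes of both lists lay on both sides of 0. Of 9 measured glia markers 5 had a positive mean (median 0.03), and of 7 measured pigment epithelium markers 4 did (median 0.08). Without intensities the level of any marker in either fraction is unknown, and the part of photoreceptor RNA carried through the sort in the outer segment ratios was not tested.

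**Figure D4:**
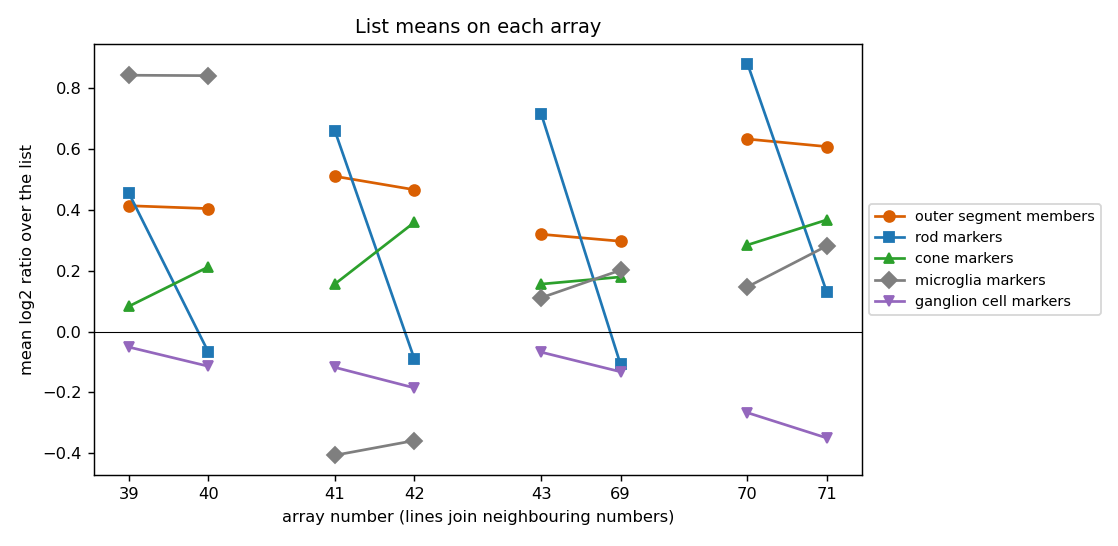
Mean log2 ratio (y axis) of the outer segment genes and of rod, cone, microglia and ganglion cell marker lists on each array (x axis), with lines joining neighbouring array numbers. The outer segment means differ by less than 0.05 within a pair, and the rod means are lower on the set 2 array of each pair.

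The 6 other genes whose values over 8 arrays lay nearest to the mean profile of the 10 genes, by root mean square difference among 14655 genes, were Abca4 (0.10), Rdh12 (0.11), Aplf (0.13), Desi2 (0.14), Plagl2 (0.14) and Otx2 (0.15). Abca4 ran from 0.28 on array 40 to 0.55 on array 70, and Rdh12 from 0.30 on array 43 to 0.63 on array 42. Aplf, a DNA repair factor, had a mean of 0.50 ± 0.18, the peptidase gene Desi2 0.49 ± 0.21 and the zinc finger factor Plagl2 0.37 ± 0.08. All 6 were positive on 8 of 8 arrays and were called with each array left out in turn. Both follow largely from how they were picked, since the profile they lie near was positive on every array.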

How the data were processed

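The authors' deposited log2 ratios of the 2 channels covered 41048 probes on 8 arrays, with a median close to 0 on each array. The unit was worked out from the values, since 67 of 88 distances between common values on an array matched a log2 of ratios of whole numbers up to 12, against 18 for log10 and 2 for the natural log. The sources used here do not give the scanner software or any background correction or normalization. Array medians lay between -0.08 and 0.03. No intensities were analysed, so depth is unknown and the number of arrays limits the precision. The 73 values of a size above 15 and the 574 of exactly 0 were treated as missing.

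Probes were named through the platform table, updated by identifier through RefSeq (GRCr8): 23374 had 1 symbol, 48 several and 17626 none, and 23327 identifiers matched. Probes of a gene were averaged, and a gene needed 6 arrays. An intercept model was fitted in limma 3.58.1 (R 4.3.3). Plots used matplotlib 3.10.9. Members and lists were chosen with earlier results of these data known. The named genes were all members, the called genes of each list (at most 6 by size, or the 2 largest as values) and the 6 genes nearest in profile. On simulated data with the real spread, 14665 genes and independent arrays, the fit recovered 52% of genes at a log2 ratio of 0.5 and 91% at 1. The simulation left out the correlation between neighbouring arrays given below, so these rates may be too high for the real arrays. Nothing in the labels says that the arrays hold separate animals, so p-values measure only the spread between arrays. After each set's mean was removed, neighbouring arrays correlated over 14665 genes at 0.21 to 0.57 and other pairs between the sets at -0.33 to 0.09. The alternatives concerned missing values, centring, scaling, probe summary, array filter, set, sign, neighbouring arrays, single arrays and robust fitting.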

Additional observations from a re-analysis of the deposited data

How the results depend on the processing

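Over all genes limma called 324 in the fit of 8 single arrays. It called 928 with set as a covariate, 523 with neighbours as a random block, 0 over averages of neighbouring arrays (1929 at an unadjusted p under 0.05), 4161 with the signs of set 2 turned, 7267 with the signs turned and neighbouring arrays averaged (chosen after seeing the data), and 496 of single probes, of which there are more to test. With an array left out the count ran from 134 to 332. Of the 10 outer segment genes 5 were called, 2 with the signs turned, 0 over the averages, and 1 to 4 with an array left out. The cause of these changes was not tested. Turning the signs of set 2 moved Tulp1 to -0.22, Rom1 to -0.069, Fscn2 to -0.080, Impg1 to -0.080, Tlcd3b to -0.29 and Prph2 to 0.35, also over averages. It moved Rom1 minus Prph2 to -0.42 and Prom1 minus Cdhr1 to -0.37. The Rom1 probe of AA892855 lay at -0.13. Prph2 ran from -0.22 to 0.0047 with an array left out, the last value being without array 42. Prom1 kept a positive mean under every alternative, but with the signs of set 2 turned it lay near 0, at 0.03 (limma adjusted p = 0.961). Its call was kept under 19 of 22 alternatives and lost over averages and where signs were turned. Values kept as deposited, scaling, the median of probes and genes on 8 arrays changed no call of the 10 genes. Centring removed that of Impg1 (adjusted p = 0.0608).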

Other observations

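Among 17 measured genes of the photoreceptor synapse, which the text above did not cover, limma called 1, the ribbon synapse calcium channel gene Cacna1f, at 0.56 ± 0.31 and positive on 7 of 8 arrays (adjusted p = 0.022). Among all genes 0.568% were called on the positive side. The list had a median of 0.18, and 14 of its 17 means were positive. The list mean ran on single arrays from -0.004 to 0.29. Among 9 measured amacrine cell markers limma called 0 (3 at an unadjusted p under 0.05), with the transcription factor Tfap2a at 0.23 ± 0.23, and Gad2, a GABA-synthesising enzyme, at 0.51 ± 0.41 (adjusted p = 0.0871) and a list median of 0.08.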
